A study of Homo sapiens with 24 samples.

Results

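Peaks of N6-methyladenosine (m6A) were described on 10 transcripts of the unfolded protein response, ATF4, ATF6, XBP1, ERN1, EIF2AK3, DDIT3, HSPA5, HERPUD1, DNAJC3 and WFS1. A peak was taken as a member when the gene identifiers listed for it included that of 1 of these genes. This gave 142 of 228472 peaks in 6 lists, namely 27 of 36659 (hPSC), 18 of 32680 (DE), 23 of 29083 (PP), 21 of 31519 (hILO), 27 of 43312 (WT PP) and 26 of 55219 (A5-KO PP). Each list was called by the authors on 2 immunoprecipitated (IP) and 2 input libraries together, so that no value per library was at hand and no test between populations was made.

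All 6 populations came from MEL1, a human embryonic stem cell line, which the study's methods give as MEL1 INS GFP/W, a reporter line with GFP at the insulin locus. Undifferentiated cells on feeder cells (hPSC) were led through definitive endoderm (DE) and pancreatic progenitors (PP) to human islet-like organoids (hILO) in the first batch, with mRNA and a SYSY antibody. The second batch held progenitors of the line with ALKBH5 intact (WT PP) and of a line carrying small deletions or insertions in the first exon of the m6A demethylase gene ALKBH5, made with CRISPR-Cpf1 (A5-KO PP). Edited lines were grown from picked colonies, and of A5-KO and A5-KO2, the lines the study names, the labels give the former, so that the knockout is that of a single line. It was prepared from total RNA with a Millipore antibody, rRNA-depleted input and another library kit, so that values of the batches are only set side by side. ALKBH5 itself had 4 peaks (WT PP) and 5 peaks (A5-KO PP), and a peak list does not measure the loss of the protein. Of the stage markers, POU5F1 and NANOG had peaks in hPSC and DE, PDX1 and NKX6-1 in PP, hILO, WT PP and A5-KO PP, and INS, GCG and SST in hILO alone. Other markers did not follow their stage: SOX2 had no peak in any list, the progenitor marker SOX9 had 2 in hPSC and lacked peaks in DE only, and of the endoderm markers CXCR4 had peaks in all 6 lists, FOXA2 in all but hPSC, and SOX17 in DE (3), WT PP (3) and A5-KO PP (2) but not in PP. Of 6 markers of liver, gut and mesenchyme (ALB, AFP, APOA1, CDX2, COL1A1 and COL3A1), the number with a peak was 1 (hPSC), 2 (DE), 3 (PP), 6 (hILO), 4 (WT PP) and 4 (A5-KO PP). The most on 1 gene were 9 on COL3A1 in PP and 6 on CDX2 in WT PP, and the part of such cells in the results was not tested. In such bulk samples fewer cells of a type and less RNA per cell cannot be told apart.

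The unfolded protein response adjusts the endoplasmic reticulum to its load of unfolded proteins, a load that is high in insulin-producing cells. It is sensed by IRE1 (gene ERN1), which splices the mRNA of the transcription factor XBP1, by PERK (EIF2AK3), which phosphorylates eIF2α and thereby favours translation of the factor ATF4 and induction of its target CHOP (DDIT3), and by ATF6, a membrane-bound transcription factor released by cleavage. The chaperone BiP (HSPA5), the degradation factor HERPUD1, the co-chaperone p58IPK (DNAJC3) and wolframin (WFS1), a membrane protein whose loss causes diabetes in Wolfram syndrome, are among its effectors. m6A is laid down by a methyltransferase complex at sites of the consensus DRACH, in which the first letter stands for any base but C, the next for a purine and the last for any base but G, above all near stop codons and in 3UTRs.

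Peaks of the 6 lists that overlapped in exonic sequence were joined into regions, 49 in all. Any overlap was enough, and regions were built for these genes only, so counts of regions have no background of their own. Every transcript had at least 1 region that was found in each of the 6 lists. The sequences below show 1 GGAC or DRACH site from the part of that region which all 6 lists share, and they are given because these stretches were listed as peaks in every population. Each is the genome's transcript strand on GRCh38, 5′ to 3′, with the site in capitals, GGAC where the shared part held one and otherwise DRACH. The GGAC of the ERN1 line is followed by G and is thus not a DRACH site. The site nearest the middle of the shared part is shown, with 10 bases on each side.
ATF6, 3UTR, chr1:161958677-161958700, plus strand: actgagcgtgGGACcctgccagac
XBP1, 3UTR, chr22:28795130-28795154, minus strand: cccttttcctTGACTattacactgc
ERN1, 3UTR, chr17:64043501-64043524, minus strand: aggagggggaGGACggagttcaga
EIF2AK3, CDS, chr2:88574676-88574699, minus strand: tcacagtaaaGGACtgatgcacag
DDIT3, 3UTR, chr12:57516663-57516687, minus strand: ggcttggagtAGACAaaaggaaagg
HSPA5, 3UTR, chr9:125236542-125236565, minus strand: tgtaaatactGGACtcaggaactt
HERPUD1, 3UTR, chr16:56943359-56943382, plus strand: tgcctctcctGGACatggcaatga
DNAJC3, CDS, chr13:95790988-95791011, plus strand: cagctcaggcGGACcatttagatt
WFS1, 3UTR, chr4:6302609-6302632, plus strand: tagattgcgtGGACcccgacaaag
ATF4 has no line here, because the 100 nt shared by all 6 lists at its 3′ end held no DRACH site, while the whole region of 336 nt held 3. The sites of ATF6, HSPA5, HERPUD1 and DNAJC3 lay within 100 nt of the stop codon, at 33, 37 and 79 nt after its last base and 32 nt before it.

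All 10 transcripts had a peak in each list. Among the 20046 coding genes of the annotation, which include genes not expressed in these cells, a peak was listed for 60.2% (hPSC), 57.0% (DE), 52.2% (PP), 57.7% (hILO), 62.8% (WT PP) and 69.7% (A5-KO PP), and 37.7% had one in all 6 lists. The number of peaks per transcript was not high for such genes. Summed over the 6 lists, it ranged from 7 for HERPUD1 to 20 for WFS1 with a median of 14.5, against a median of 18 for the 7562 coding genes with a peak in every list.

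The regions fell into a constant and a variable set. Of the 49, 11 were found in 6 lists, 1 in 5, 6 in 4, 10 in 2 and 21 in 1 list only. The 11 constant regions comprised 1 for each transcript and a second one for DNAJC3. By the midpoint of their shared part on the longest coding isoform, 10 of the 11 lay in the 3UTR and in the last exon, and 6 lay within 200 nt of the stop codon. EIF2AK3 was the exception, with its constant region in the CDS, in exon 14 of 18. The 21 regions found in 1 list were placed otherwise, with 9 in the CDS, 5 in the 3UTR, 1 in the 5UTR and 6 outside the exons of the longest isoform. For few of them could the deposited exomePeak2 p be used, for reasons given below. It missed the study's threshold of 1e-05 for ATF4 in PP (0.01458) and ATF6 in hPSC (0.0007092 and 4.22e-05). The same held for HERPUD1 in hPSC (0.00017) and WFS1 in A5-KO PP (0.0005167), while WFS1 in WT PP (1.4e-06) met it. In the constant regions, all peaks with a usable p met it.

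**Figure D1:**
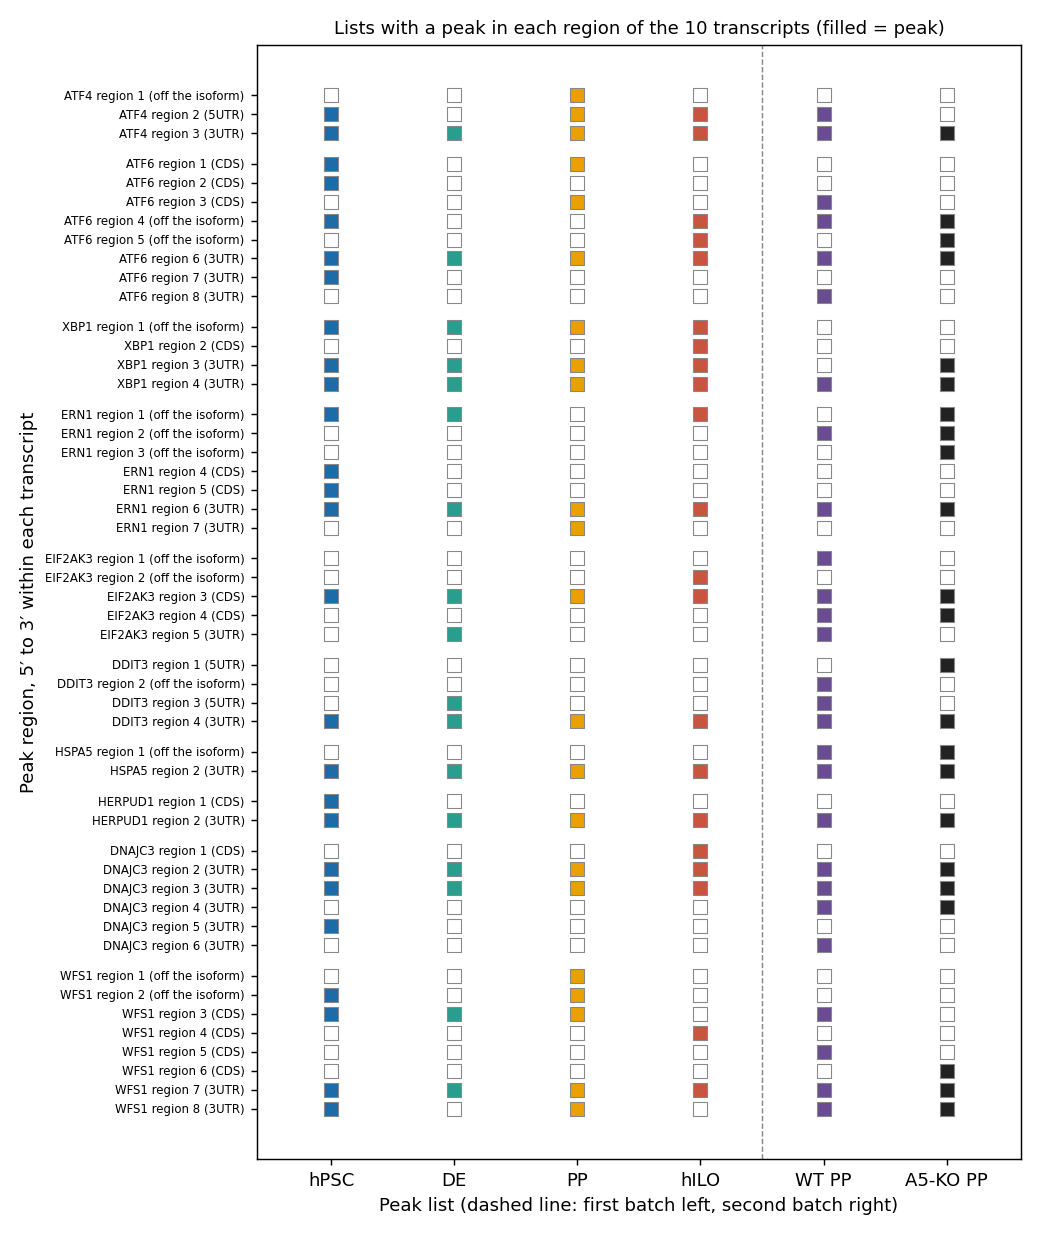
Presence (filled) or absence (open) of a peak in each list (columns) for each of the 49 regions (rows, ordered from 5′ to 3′ within a transcript, with the place of the region's midpoint). The 11 rows filled throughout, 1 for each transcript and 2 for DNAJC3, are the constant regions, and 21 rows are filled in 1 list.

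For comparison, peaks of hPSC of which over 50% was covered in each of the 5 other lists made up 17.6% of all hPSC peaks, and 6 of the 27 on these transcripts. Of all such recurrent hPSC peaks with a place on the isoform, 47.1% lay in the 3UTR, 71.4% in the last exon and 30.4% within 200 nt of the stop codon. The 6 on these transcripts had 5 in the 3UTR, 5 in the last exon and 3 within that distance. Other hPSC peaks had lower shares of 38.4%, 54.8% and 17.9%. A last-exon place is thus usual for recurrent peaks in these lists.

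Of the IRE1 branch, ERN1 had its constant region deep in a long 3UTR, 1628 nt after the stop codon, at chr17:64043492-64043816 in the shared part. The peak was 675 nt long in hPSC, 700 nt in PP, 650 nt in hILO and 1559 nt in WT PP, while DE and A5-KO PP each listed a pair of shorter peaks there. A region at the other end of the gene, chr17:64129056-64129480, was found in hPSC, DE, hILO and A5-KO PP and not in PP or WT PP. Its peaks lay wholly outside the exons of the longest coding isoform. No ERN1 peak lay within 200 nt of the stop codon.

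XBP1 had 3 regions in all 4 stages, more than any other of the transcripts. The region 417 nt after the stop codon (shared part chr22:28795080-28795179) was found in all 6 lists, and the one 42 nt after it in all but WT PP. Both distances are on the longest coding isoform. On the isoform with the longest CDS, the midpoints of all peaks of the second region lay in the CDS. The third, near the 5′ end at chr22:28798975-28800030, was found in each of the 4 stages and in neither WT PP nor A5-KO PP, the only region of the 49 with that pattern. The batches differ in RNA, antibody and kit, and these cannot be told apart. hILO alone had a further XBP1 peak in the CDS. The 26 nt intron that IRE1 removes is annotated in 1 isoform at chr22:28796128-28796153, and no peak of any list overlapped it, the nearest lying 498 nt away.

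In the PERK branch, EIF2AK3 had a constant region over chr2:88570921-88575244 that reaches over an intron. Its shared exonic part of 1005 nt held 17 DRACH and 7 GGAC sites, the most of the constant regions. In DE, hILO, WT PP and A5-KO PP the deposited span ran on to an end between 88562313 and 88562363, over 4958 to 5083 nt of annotated exonic sequence, and how much of that is methylated cannot be read from the list. A region with its shared part in the last exon (chr2:88557691-88558995) was found in WT PP and A5-KO PP only.

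ATF4 had 2 recurrent regions, at its ends. The 3′ region covered the stop codon in all 6 lists. The 5′ region, at chr22:39520572-39520771 in the first exon and in the 5UTR of the longest isoform, was found in hPSC, PP, hILO and WT PP and was missing from DE and A5-KO PP. It held no DRACH site. DDIT3, the shortest of the transcripts with 1067 nt, had a constant region ending at the 3′ end of the gene, of 400 to 525 nt in 5 lists and 200 nt in A5-KO PP, where it no longer reached the stop codon. Short peaks of 50 to 75 nt in its 5′ part were listed in DE (1), WT PP (2) and A5-KO PP (1). All 10 peaks on DDIT3 also list another gene that overlaps it, ENSG00000285133, so their assignment is uncertain.

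ATF6 carried a peak of 300 to 400 nt at the start of its 3UTR in every list, centred 103 nt after the stop codon in the shared part (chr1:161958607-161958906). Its other 7 regions were found in 1 to 4 lists. Of these, a span of 4265 to 4340 annotated nt over 6 exons just before it was listed in hILO and A5-KO PP.

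Among the effectors, HERPUD1 had the same peak, chr16:56943278-56943552, to the base in hPSC, DE, PP, hILO and A5-KO PP, and a wider one of 375 nt in WT PP. A second HERPUD1 peak, in the first exon, was found in hPSC alone. That peak had 16 input reads, under the minimum of 50 tried as an alternative. Its deposited exomePeak2 p of 0.00017 missed the study's threshold of 1e-05, which would remove it. HSPA5 had a region over the stop codon in all lists and 1 more in WT PP and A5-KO PP, with its midpoint outside the exons of the longest isoform. DNAJC3 had constant regions at 6 and 681 nt after the stop codon, and a peak 1531 nt after it in WT PP and A5-KO PP only. WFS1 had the most peaks, from 2 in DE and hILO to 5 in PP, all but 3 of the 20 in its CDS or 3UTR. Its constant peak of 400 to 425 nt lay in the 3UTR around 247 nt after the stop codon. A CDS region, chr4:6300878-6301202, was found in hPSC, DE, PP and WT PP, and not in hILO or A5-KO PP.

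Over all lists, 111 of the 142 peaks had their midpoint on the longest isoform, 7 in the 5UTR, 36 in the CDS and 68 in the 3UTR. Of the placed peaks the 3UTR held 52.2% (hPSC), 64.3% (DE), 63.2% (PP), 50.0% (hILO), 61.9% (WT PP) and 77.8% (A5-KO PP), against 40.2%, 44.6%, 38.1%, 42.3%, 43.9% and 37.3% of all peaks. The highest of these shares rests on 14 of 18 peaks. The stop codon of that isoform was covered by 41 peaks. It was covered in all 6 lists for ATF4, ATF6, HSPA5, HERPUD1 and DNAJC3. For XBP1 and DDIT3 it was covered in 5 lists, for EIF2AK3 in 1 and for ERN1 and WFS1 in none. When peaks were placed by any overlap with that isoform in place of the midpoint, with the stop codon as a class of its own, the 3UTR class held 41 peaks and 11 were off the isoform.

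DRACH sites were nearly as dense outside the peaks of these transcripts as inside. Peaks held 19.7 to 20.9 sites per kb over the lists and the other exons 18.5 to 18.9, a ratio of 1.04 in DE to 1.12 in WT PP and A5-KO PP. Over all coding genes with a peak the ratio was 1.21 in WT PP to 1.28 in DE. On the opposite strand, searched as a background, it was 0.82 to 1.01 for these transcripts and 0.80 to 0.87 for all coding genes. GGAC gave ratios of 0.97 in hILO to 1.45 in WT PP here and 1.39 to 1.64 in all coding genes. The counts are small, 26 to 71 GGAC sites per list. Peaks within 1 exon gave DRACH ratios of 1.00 to 1.20 and, for all coding genes, 1.21 to 1.31. For GGAC they gave 0.92 (hPSC), 0.86 (DE), 1.12 (PP), 0.86 (hILO), 1.49 (WT PP) and 0.92 (A5-KO PP), so that the ratio fell below 1 in hPSC, DE and A5-KO PP, where it was 1.25, 1.07 and 1.07 with all peaks. All coding genes gave 1.51 to 1.71.

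To ask whether peaks were passed on along differentiation, a peak was counted as inherited when peaks of the preceding stage covered over 50% of its exons. Of the DE peaks 15 of 18 were found in hPSC, against 64.7% of all DE peaks. EIF2AK3, with 0 of 2, and DDIT3, with 1 of 2, held the 3 others. Of the PP peaks 13 of 23 were found in DE, against 57.0%, and of the hILO peaks 10 of 21 in PP, against 45.6%, so that these 2 shares stood near those of all peaks. In the other direction 11 of 27 hPSC peaks were found in DE, against 52.5% of all hPSC peaks, 13 of 18 DE peaks in PP, against 46.6%, and 15 of 23 PP peaks in hILO, against 60.5%. Counted by region, hPSC and DE had 15 in common, with 11 in hPSC and not DE and 2 in DE and not hPSC. DE and PP had 14 in common with 3 and 8, and PP and hILO 14 with 8 and 7. In the comparison of the batches, 15 of 23 PP peaks were found in WT PP, against 57.9% of all PP peaks, and 9 of 27 WT PP peaks in PP, against 22.4%.

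To see how peaks differed with the loss of ALKBH5, the lists of WT PP and A5-KO PP were compared. Of the A5-KO PP peaks on these transcripts 17 of 26 were found in WT PP, against 46.8% of all A5-KO PP peaks, and of the WT PP peaks 15 of 27 in A5-KO PP, against 50.0%. The lists shared 17 of 33 regions, with 10 in WT PP and not A5-KO PP, and 6 the other way round. Regions were not built for all genes, so these counts have no background of their own. In peaks, 12 of WT PP were not found in A5-KO PP and 9 the other way round, while over all peaks it was 21669 and 29386, with more on the side of A5-KO PP. The 6 regions lay on ATF6, XBP1, ERN1 (2), DDIT3 and WFS1. The 10 regions lay on ATF4, ATF6 (2), EIF2AK3 (2), DDIT3 (2), DNAJC3 and WFS1 (2). With 1 list for each genotype, the spread that such counts have between cultures is not known.

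The read counts and the enrichment deposited beside each peak could be used for only part of the list. Neighbouring peaks of 1 gene should have similar input reads, but along most of each list the counts did not go with the positions by this measure. The counts went with the positions in 40.2% of the peaks of hPSC, 37.9% of DE, 14.9% of PP, 11.9% of hILO, 8.80% of WT PP and 8.42% of A5-KO PP. Peaks with the same coordinates in 2 lists served as a check that this rule did not use. Where the counts went with the positions in both lists, their input reads had a Spearman rho of 0.70 to 0.90 over 7 pairs of lists (234 to 933 peaks), and where they did so in neither, of 0.08 to 0.25 (1217 to 3283 peaks). For the log2 enrichment rho was lower, 0.53 to 0.74 against 0.06 to 0.26, and lowest at 0.53 between WT PP and A5-KO PP. These correlations are across peaks, which are not replicates. Values are therefore given only for the 34 peaks of these transcripts in such stretches, all on ATF4, ATF6, HSPA5, HERPUD1 and WFS1. Whether the counts of any single peak are its own was not tested. The cause of the mismatch, such as a shift of rows, was not tested either.

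In the following, the log2 enrichment of IP over input is the authors' estimate, and its interval is a 95% counting interval from the pooled IP and input reads, which leaves out the variation between cultures. The constant peak of HSPA5 was among the most deeply covered of the stage lists. It had 4408 input and 44495 IP reads in hPSC, 20175 and 49552 in DE, 7701 and 27428 in PP and 16882 and 49075 in hILO. These input reads were above those of 99.6% to 99.9% of the peaks with usable values in the same list. The log2 enrichment was 2.02 (1.98 to 2.07) in hPSC, 2.00 (1.98 to 2.03) in DE, 1.86 (1.83 to 1.90) in PP and 1.79 (1.76 to 1.81) in hILO. The peaks differed in length, with 725, 375, 575 and 875 nt in that order of stages. From DE to PP the log2 enrichment differed by -0.14 (-0.18 to -0.10), or by -0.31 with centred counts, and from PP to hILO by -0.07 (-0.12 to -0.03). With log2 ratios of the counts, centred on 1 constant per list, the latter difference was 0.44 in the other direction.

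The 3′ peak of ATF4 was covered almost as deeply, with 3256 input and 32080 IP reads in hPSC, 9998 and 23429 in DE, 7046 and 26778 in PP and 15922 and 52248 in hILO. Its log2 enrichment was 1.91 (1.86 to 1.96) in hPSC, 1.62 (1.59 to 1.66) in DE, 1.35 (1.31 to 1.39) in PP and 1.83 (1.80 to 1.85) in hILO. It was thus lowest in PP, with differences of -0.29 (-0.35 to -0.23) from hPSC to DE, -0.27 (-0.32 to -0.22) from DE to PP and 0.47 (0.43 to 0.52) from PP to hILO. With centred counts these were -0.13, -0.15 and 0.52. The 5′ peak had 130 input and 1079 IP reads in hPSC, 307 and 1641 in PP and 927 and 2488 in hILO. Its log2 enrichment was 1.46 (1.20 to 1.72), 1.17 (0.99 to 1.34) and 1.06 (0.95 to 1.17), each below that of the 3′ peak in the same list, with intervals that overlapped in PP.

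The ATF6 peak at the start of the 3UTR had 87 input and 1564 IP reads in hPSC, 227 and 740 in DE, 261 and 1399 in PP and 396 and 1327 in hILO. Its log2 enrichment was 2.76 (2.45 to 3.07) in hPSC, 2.13 (1.91 to 2.34) in DE, 1.99 (1.80 to 2.18) in PP and 1.91 (1.74 to 2.07) in hILO. The value was highest in hPSC, the only stage whose interval did not overlap the others. The difference from hPSC to DE was -0.64 (-1.01 to -0.26), and those from DE to PP, -0.13 (-0.42 to 0.15), and from PP to hILO, -0.09 (-0.34 to 0.16, and 0.06 with centred counts), had intervals that held 0. In hPSC, PP and hILO, where ATF6 had further peaks, this peak had the highest log2 enrichment of them. The span before it in hILO had a log2 enrichment of 0.61 (0.48 to 0.75), at percentile 0.347 of the usable hILO peaks. For HERPUD1, whose peak was identical in hPSC and DE, there were 86 input and 1546 IP reads in hPSC and 583 and 1972 in DE. Its log2 enrichment was 2.80 (2.49 to 3.11) and 2.27 (2.14 to 2.40), a difference of -0.53 (-0.87 to -0.19).

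None of the 10 differences between successive stages reached 1 on the log2 scale, the size taken here as a change. Among all shared peaks with usable values such a difference was found for 3.02% from hPSC to DE (8201 peaks), 3.78% from DE to PP (2488) and 2.24% from PP to hILO (1829). The median difference of those peaks was -0.119 from hPSC to DE, with quartiles of -0.318 and 0.0796, and -0.202 from DE to PP, with quartiles of -0.437 and 0.0408. From PP to hILO it was -0.00372, with quartiles of -0.239 and 0.219. The differences of ATF6 (-0.64) and HERPUD1 (-0.53) from hPSC to DE and of ATF4 (0.47) from PP to hILO lay outside the quartiles of their step, and the other 7 lay inside. The lists were scaled separately, and with centred counts the differences of ATF6 and HERPUD1 from hPSC to DE were -0.52 and -0.47, while that of HSPA5 from PP to hILO was 0.44 in place of -0.07.

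In the second batch only WFS1 had values that could be used in both lists. Its constant 3UTR peak had 226 input and 1697 IP reads in WT PP and 154 and 1476 in A5-KO PP. The log2 enrichment was 4.93 (4.73 to 5.13) in WT PP and 5.73 (5.50 to 5.97) in A5-KO PP, a difference of 0.80 (0.49 to 1.11) that was 0.44 with centred counts. The next 3UTR peak was 288 nt long in WT PP and 175 nt in A5-KO PP, and had 118 input and 555 IP reads in WT PP and 150 and 340 in A5-KO PP. Here the log2 enrichment was 3.98 (3.69 to 4.26) and 2.95 (2.67 to 3.22), lower in A5-KO PP by a difference of -1.03 (-1.43 to -0.63), and -0.96 with centred counts. The neighbouring peaks of 1 transcript thus differed in opposite directions. Both WFS1 differences lay outside the quartiles of the 2459 shared peaks with usable values in these lists, -0.696 and 0.611. A difference of at least 1 in either direction was found for 35.8% of those peaks, so that sizes of this order were still common there. The CDS peaks of WFS1 had lower log2 enrichment, 2.78 (2.60 to 2.95) and 2.35 (2.16 to 2.54) in WT PP and 2.49 (2.12 to 2.87) in A5-KO PP.

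Other genes of the pathway were taken from a list of 54. The number of them with a peak was 46 (hPSC), 45 (DE), 46 (PP), 49 (hILO), 47 (WT PP) and 49 (A5-KO PP), and 38 had a peak in all 6 lists. Among all coding genes these shares were 52.2% to 69.7% per list and 37.7% in all lists, genes not expressed here included. The PERK branch had a peak for each of its 12 genes in each list. Its genes with the most peaks were the stress regulator NFE2L2 with 33 over the 6 lists, the transcription factor ATF5 with 29, which had 5 to 7 in the stages and 2 and 3 in WT PP and A5-KO PP, and the eIF2α phosphatase subunit PPP1R15A with 23, as many as its paralogue PPP1R15B. Of the 9 genes of the IRE1 branch 6 had a peak in all lists, led by the translocon subunit SEC61A1 with 19, SERP1 with 17 and the tRNA ligase RTCB, which joins the cut XBP1 exons, with 13. SEC61B had none in any list. Of the 19 genes of the ATF6 branch and the chaperones 10 had a peak in all lists, led by HSP90B1 with 37, calnexin (CANX) with 15 and the ATF6 protease MBTPS1 with 14, as many as MBTPS2 and PDIA4. Of the 14 genes of degradation at the endoplasmic reticulum 10 did, led by HERPUD2 and OS9 with 24 each and SEL1L with 21. None of the 54 had a shared peak with usable values in WT PP and A5-KO PP, so no difference in enrichment can be given for them.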

How the data were processed

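Per the labels and the study's methods, reads were trimmed with fastp, aligned to GRCh38 with HISAT2, 1 alignment per read, and peaks were called with exomePeak2 on the IP and input libraries of a population together. The authors deposited for each peak pooled read counts of IP and input, a log2 enrichment of IP over input, and a p-value with its adjusted value. As thresholds the study's methods name 1.5 for IP/input and 1e-05 for p, while the deposited rows all had an adjusted p under 0.05.

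Spans were reduced to exons of GENCODE 44 (pandas 2.3.3, pysam 0.24.0). Of the 142 member peaks, 25 covered several exons, and 14 of these had an exonic length divisible by the caller's 25 nt step, so the extent of the others is uncertain. Overlap was required on the same strand. Counts were taken to go with positions where, in windows of 500 peak names to each side, counts of neighbours of 1 gene correlated best without a shift, among shifts of up to 40, and where a peak's number lay within 2% of the list of its rank by gene, with an offset within 50 of the median of its neighbours. This rule was chosen after seeing the data. It was tried on simulated data with a single shifted stretch and no missing peak numbers, a simpler case than these lists. Peak numbers missing from the lists, from 0.136% in hPSC to 9.51% in WT PP, leave room for peaks not listed, and where peaks were kept on counts that were not their own, listed peaks may also not have met the thresholds. How many of all peaks was not tested, and it bears on every count of peaks. Not all member peaks whose counts went with their positions had a deposited p below 1e-05 either. It was 5 of 10 in hPSC, 4 of 4 in DE, 4 of 7 in PP and 6 of 6 in hILO. In the second batch it was 4 of 4 in WT PP and 2 of 3 in A5-KO PP. How the counts of the libraries were combined is not given in the sources used here. Counting errors used 0.5 added to each count, and cover counting only, since PCR copies are not independent. All 10 members, the pathway list and the alternatives were chosen with earlier results of these data known. Named genes of the pathway list were the 3 of each branch with the most peaks, ties in alphabetical order. For the sequences, ties between regions were settled by the length of the shared part in place of the enrichment.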

Additional observations from a re-analysis of the deposited data

How the results depend on the processing

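No paired analysis was possible because each deposited list holds 1 value for both replicates, and for the same reason no replicate could be left out. Thresholds on the deposited values could be applied only to member peaks whose counts went with their positions. Of these, an IP/input ratio of at least 3 kept 6 of 10 in hPSC, 2 of 7 in PP and 3 of 6 in hILO. A p below 1e-10 kept 4 in hPSC, 3 in PP, 2 of 4 in WT PP and 1 of 3 in A5-KO PP, and a p below 1e-05 kept 5 in hPSC and 4 in PP. At least 50 input reads were found for 5 of 10 in hPSC. Any overlap raised the WT PP peaks found in PP from 9 to 15, and a reciprocal overlap lowered the PP peaks found in WT PP from 15 to 8. With centred counts no WFS1 difference between WT PP and A5-KO PP reached 1, so the count fell from 1 to 0. Placed by any overlap with the stop codon as a class of its own, in place of the midpoint, the 3UTR held 41 peaks and not 68. With centred counts the ATF4 differences from hPSC to DE and from DE to PP were -0.13 and -0.15 in place of -0.29 and -0.27, and that of HSPA5 from DE to PP was -0.31 in place of -0.14. The 57 other alternatives to a main count or ratio left it within 1.5 times its value. The alternatives that leave out peaks of several coding genes, use peaks within 1 exon, or count the 4 stages alone were added after seeing the data.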
